A study of Sus scrofa with 11 samples.

Results

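The subject here is oxidative phosphorylation in porcine coronary arteries: the subunit genes of respiratory complexes I to IV and of ATP synthase (complex V), from both the nuclear and the mitochondrial genome. Members were chosen by symbol, with earlier results of these data known, though differences between groups did not enter the rule. They were subunit genes of the NDUFA, NDUFB, NDUFC, NDUFS, NDUFV, SDH, UQCR, COX4 to COX8 and ATP5 families plus the 13 mitochondrially encoded protein genes. NDUFA4L2, a paralogue of the subunit NDUFA4, was left out by the rule. Of 25880 gene identifiers in the count tables, 75 matched, and 73 had at least 10 counts in 2 or more libraries: 60 nuclear and 13 mitochondrially encoded genes. All 73 entered the tests. The other 2, NDUFA2 and NDUFB7, are listed at 0 counts in every library. Only 14857 of the identifiers carry a symbol, and subunits with no matching one, such as ATP5F1B, UQCRB and COX6C, were not read. Statements on a complex below cover its members only. The nuclear members were 25 subunits of complex I, 4 of complex II, 6 of complex III, 14 of complex IV (NDUFA4 among them) and 11 of complex V, and the mitochondrial ones were 7, 0, 1, 3 and 2.

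The study describes a vessel culture model for testing stents. RNA sequencing counts came from 11 libraries: stented vessels kept in a bioreactor without flow (stented static, 2 libraries), stented vessels under the stronger flow (stented high-flow, 3), unstented vessels under that flow (high-flow, 2), unstented vessels under low flow (low-flow, 2) and native arteries that were not cultured (native, 2). No other treatment, strain, age or duration of culture is given in the labels. A d suffix of 3 stands on both stented static libraries and of 7 on stented high-flow replicate 3, with no stated meaning, and native replicate 2 and stented high-flow replicate 1 carry the same label number, 25. Whether replicate libraries stem from separate animals is not in the labels, so p-values measure only how far these samples spread, and that spread may be technical.

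Oxidative phosphorylation makes most of the ATP of a resting cell. Complexes I and II take electrons from NADH and succinate, complex III passes them to cytochrome c, complex IV hands them to oxygen, and ATP synthase uses the resulting proton gradient. The mitochondrial genome encodes a few hydrophobic core subunits of complexes I, III, IV and V. They are transcribed in the organelle as long polycistronic precursors, which are then cut into shorter messengers. All other subunits, and the whole of complex II, come from nuclear genes and are imported. Smooth muscle of the arterial wall relies on both this pathway and glycolysis. Gene roles below are those known in mammals, chiefly from human and bovine work.

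Total counts per library were 13496636 to 26785124. Levels are counts per 1e6 on scaled library sizes (CPM), changes are log2 fold changes ± standard error, and a gene is said to have risen or fallen where its Benjamini-Hochberg adjusted p over 15348 genes, from edgeR's quasi-likelihood test, was under 0.05. The labelled tissue was checked against smooth muscle markers, of which 13 of 14 were found. Their summed level was 1321 to 4802 CPM in stented static, 6525 to 10412 in stented high-flow, 3305 to 9823 in high-flow and 10765 to 11101 in low-flow vessels, against 43206 to 56199 CPM in native arteries. Cardiomyocyte markers, 14 of 20 found, summed to 30.2 to 83.8, 18.5 to 84.9, 27.9 to 101.1 and 81.9 to 86.2 CPM in these cultured groups, against 2815 CPM in native replicate 1 and 994 CPM in native replicate 2. The defining cardiac gene TNNT2 had 6196 counts in native replicate 1, 23 in native replicate 2 and 0 to 22 in each cultured library. The markers did not all part the native pair in this way. TNNC1 had 704 and 638 CPM and HRC 104 and 118 CPM in native replicates 1 and 2, and TNNC1 made up most of the sum of replicate 2. All other cardiomyocyte markers found were higher in native replicate 1. Adipocyte markers, 11 of 12 found, summed to 261 to 2941, 39.7 to 104, 72.9 to 215 and 203 to 305 CPM in the cultured groups in the same order, against 2086 to 3279 CPM in native arteries, and macrophage markers, 12 of 12 found, to 993 to 2297, 380.5 to 822, 380.7 to 599 and 880 to 1082 CPM, against 543 to 558 CPM. Endothelial markers, 8 of 10 found, summed to 424 to 1106, 338 to 489, 524 to 684 and 568 to 799 CPM, against 851 to 1025 CPM in native arteries, and 1, 5, 2 and 2 of the 8 fell in these groups. The macrophage markers did not move as one. CD163 and MSR1 rose in every cultured group, while CSF1R fell in stented high-flow (-2.35 ± 0.53) and high-flow vessels (-2.55 ± 0.61). In each of those groups 5 of the 12 had a positive log2 fold change and 7 a negative one. In such bulk samples fewer cells of a type and less RNA per cell cannot be told apart.

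The 2 genomes parted in culture: the mitochondrially encoded messengers were lower in every cultured vessel than in both native arteries when summed, while the nuclear sums ran on both sides of the native range. The 13 mitochondrial genes summed to 27587 and 40231 CPM in the stented static pair, 55867, 57499 and 34451 CPM in the stented high-flow libraries, 49228 and 84312 CPM in the high-flow pair and 53868 and 39593 CPM in the low-flow pair, against 117019 and 124256 CPM in the native pair. No cultured library reached the native levels, and high-flow replicate 2 came closest. The 60 nuclear genes summed to 3273 and 2610.0 CPM in the stented static pair, 2778, 3635 and 4124 CPM in the stented high-flow libraries, 3748 and 4033 CPM in the high-flow pair and 2793 and 2754 CPM in the low-flow pair, against 3765 and 3407 CPM in the native pair. Both high-flow libraries and stented high-flow replicates 2 and 3 lay inside or above the native range here, and the other 5 cultured libraries, both low-flow ones among them, lay below it.

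The ratio of the mitochondrial to the nuclear sum put every cultured library below both native ones. It was 8.43 and 15.4 in the stented static pair, 20.1, 15.8 and 8.35 in the stented high-flow libraries, 13.1 and 20.9 in the high-flow pair and 19.3 and 14.4 in the low-flow pair, against 31.1 and 36.5 in the native pair. Group means were 11.9 ± 4.94 in stented static, 14.8 ± 5.95 in stented high-flow, 17.0 ± 5.49 in high-flow, 16.8 ± 3.47 in low-flow and 33.8 ± 3.82 in native vessels (SD, n = 3 in stented high-flow and n = 2 in the others). On the log2 scale the group mean ratio stood below native by -1.56 in stented static, -1.28 in stented high-flow, -1.02 in high-flow and -1.02 in low-flow vessels. These are descriptions, with no test of a score over the members. The native library with fewer cardiac transcripts, replicate 2, had the higher mitochondrial sum of the native pair. The part of cell content, smooth muscle included, in these differences was not tested.

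**Figure D1:**
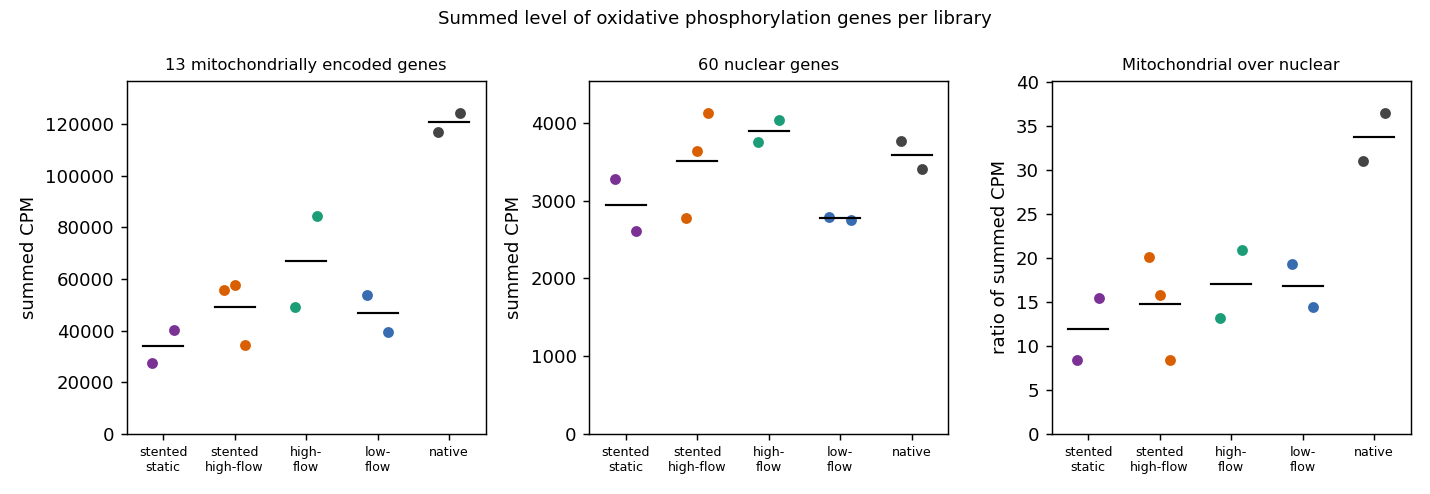
Summed level of the 13 mitochondrially encoded genes (left, CPM), of the 60 nuclear genes (middle, CPM) and their ratio (right) in each library; points are libraries and bars are group means. The cultured libraries sit at 27587 to 84312 CPM in the left panel, below the native 117019 and 124256 CPM, while the middle panel runs from 2610 to 4124 CPM over all libraries.

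The first set of comparisons asked how each cultured group differed from native arteries, and all 4 share the same native libraries. Among mitochondrially encoded members 11 of 13 fell and 0 rose in stented static vessels, 10 fell and 0 rose in stented high-flow, 6 fell and 0 rose in high-flow and 9 fell and 0 rose in low-flow. Over all genes tested, edgeR called 5.54% higher and 7.19% lower in stented static, 10.4% higher and 13.9% lower in stented high-flow, 5.94% higher and 8.86% lower in high-flow and 5.03% higher and 7.38% lower in low-flow vessels. The median log2 fold change of the 13 genes was -2.36, -1.85, -1.40 and -1.85 in that order, beside 0.02, 0.06, 0.02 and -0.00 over all genes. All cultured libraries lay below both native libraries for 10 of the 13 genes, and 16.9% of all genes tested did so. The exceptions were COX1, ND5 and ND6. With single libraries left out, the counts of called genes were 6 to 11 in stented static, 6 to 10 in stented high-flow, 1 to 5 in high-flow and 2 to 4 in low-flow vessels. The lowest counts came without native replicate 2 (6 in both stented groups), stented static replicate 1 (6), high-flow replicate 1 (1) and low-flow replicate 2 (2). Without native replicate 1, the library rich in cardiac transcripts, they were 9, 9, 4 and 4.

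Cytochrome b, CYTB (ENSSSCG00000018094, chromosome MT, 15342 to 16481 in Sscrofa11.1), the only mitochondrially encoded subunit of complex III, showed the largest fall of the 13 in all 4 comparisons. It had 963 and 685 CPM in the stented static pair, 688, 1209 and 573 CPM in the stented high-flow libraries, 1196 and 1316 CPM in the high-flow pair and 1147 and 858 CPM in the low-flow pair, against 10587 and 9466 CPM in the native pair. The groups were far apart, with the highest cultured library at 1316 CPM and the lowest native one at 9466 CPM. Its log2 fold change was -3.60 ± 0.43 in stented static, -3.61 ± 0.36 in stented high-flow, -2.997 ± 0.41 in high-flow and -3.32 ± 0.42 in low-flow vessels (edgeR adjusted p = 0.000892, 0.000162, 0.00161 and 0.00119). These calls were kept under every alternative processing tried, including each library left out.

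Both mitochondrial subunits of ATP synthase fell in all 4 groups. ATP6 (ENSSSCG00000018081, chromosome MT, 9120 to 9800), which forms the proton path through the membrane, had 2871 and 2793 CPM in the stented static pair, 3181, 3676 and 2323 CPM in the stented high-flow libraries, 3244 and 4666 CPM in the high-flow pair and 3779 and 2965 CPM in the low-flow pair, against 13567 and 16091 CPM in the native pair. The highest cultured library, high-flow replicate 2, stood at 4666 CPM and the groups did not overlap. Its log2 fold change was -2.39 ± 0.36 in stented static, -2.28 ± 0.31 in stented high-flow, -1.91 ± 0.35 in high-flow and -2.14 ± 0.35 in low-flow vessels (edgeR adjusted p = 0.00245, 0.000694, 0.00589 and 0.00423). The ATP6 call was lost in high-flow without high-flow replicate 1 (adjusted p = 0.0592) and in low-flow without low-flow replicate 2 (adjusted p = 0.0648). ATP8, a small neighbour of ATP6 in the same enzyme, averaged 231 ± 87.5, 356 ± 141, 413 ± 113 and 480.2 ± 75.3 CPM in these groups, against 1731 ± 615 CPM in native arteries (SD). Its log2 fold changes were -2.91, -2.28, -2.07 and -1.85. ATP8 and ATP6 overlap by 43 bases, and how the authors counted reads in overlapping genes is not given, so their values are not independent. Leaving out any library of the comparison ended the ATP8 call in low-flow vessels (adjusted p up to 0.178), and leaving out native replicate 2 or high-flow replicate 1 ended it in high-flow (up to 0.120).

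The 7 mitochondrial subunits of complex I split by gene. ND1 and ND3, which lie close to the quinone site, and ND2, a proton-pumping subunit, fell in all 4 groups. ND1 had 544 and 999 CPM in the stented static pair, 1286, 1719.9 and 1074 CPM in the stented high-flow libraries, 1658 and 2185 CPM in the high-flow pair and 1305 and 1348 CPM in the low-flow pair, against 4916 and 4871 CPM in the native pair, with a log2 fold change of -2.67 ± 0.38 in stented static, -1.85 ± 0.32 in stented high-flow, -1.35 ± 0.36 in high-flow and -1.88 ± 0.37 in low-flow vessels. For ND2 the changes were -2.46, -2.05, -1.78 and -2.08, and for ND3 they were -2.36, -2.07, -1.69 and -2.27. Cultured and native libraries did not overlap for any of these 3 genes. ND4, another pumping subunit, fell in stented static (-1.88), stented high-flow (-1.42) and low-flow vessels (-1.42) and stood at -1.16 ± 0.38 in high-flow (edgeR adjusted p = 0.0640). ND4L, whose gene overlaps ND4 by 7 bases, fell in stented static (-2.18) and stented high-flow vessels (-1.57). It stood at -1.40 in high-flow and -1.29 in low-flow (edgeR adjusted p = 0.0660 and 0.0943). In high-flow vessels the ND1 call was lost whichever library of the comparison was left out, ND2 lost it without either native library or without high-flow replicate 1, and ND3 without native replicate 2 or high-flow replicate 1 (edgeR adjusted p up to 0.180, 0.141 and 0.0670). In low-flow vessels ND1 and ND4 lost theirs whichever library was left out (up to 0.0975 and 0.201), and ND2 without native replicate 2 or either low-flow library (up to 0.110). ND4 and ND4L lost their calls without native replicate 2 in stented high-flow vessels (0.0967 and 0.158), and without native replicate 2 or stented static replicate 1 in stented static ones (up to 0.0848 and 0.110).

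The other complex I genes of the organelle varied more between replicates. ND5, the pumping subunit at the far end of the membrane arm, had 1904 and 3203 CPM in the stented static pair, 7401, 5119 and 2757 CPM in the stented high-flow libraries, 4025 and 8193 CPM in the high-flow pair and 5829.9 and 4190.2 CPM in the low-flow pair, against 7733 and 11344 CPM in the native pair. High-flow replicate 2 exceeded native replicate 1, and the only call was in stented static vessels (-1.90 ± 0.53, edgeR adjusted p = 0.0387), which was lost whichever library of that comparison was left out (adjusted p up to 0.209). ND6, the only one of the 13 encoded on the opposite strand, was not called in any comparison. It had 722 and 1965 CPM in the stented static pair, 3546, 2859 and 1372 CPM in the stented high-flow libraries, 2085 and 4449 CPM in the high-flow pair and 2799 and 1652 CPM in the low-flow pair, against 3562 and 5612 CPM in the native pair, and the cultured range reached into the native one in high-flow vessels. Its log2 fold changes were -1.77 ± 0.60, -0.82 ± 0.53, -0.49 ± 0.59 and -1.04 ± 0.59 (edgeR adjusted p = 0.0769, 0.285, 0.623 and 0.276). ND6 overlaps ND5 by 17 bases on the other strand, and the strand setting of the counting was not given in the sources used here. Reads of ND6 and of transcripts antisense to it therefore cannot be told apart.

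The 3 mitochondrial subunits that form the catalytic core of complex IV differed from each other. COX2, which takes electrons from cytochrome c, had 1379 and 2939 CPM in the stented static pair, 3004, 3859 and 1861 CPM in the stented high-flow libraries, 3387 and 4982 CPM in the high-flow pair and 3576 and 2035 CPM in the low-flow pair, against 10567 and 11947 CPM in the native pair. It fell in stented static (-2.38 ± 0.49), stented high-flow (-1.95 ± 0.42) and low-flow vessels (-2.005 ± 0.49) and stood at -1.43 ± 0.48 in high-flow (edgeR adjusted p = 0.0120, 0.00793, 0.0236 and 0.0677). COX3, a core subunit with no redox centre, averaged 6034 ± 575 CPM in stented static, 7248 ± 1498 in stented high-flow, 9745 ± 2593 in high-flow and 6785 ± 634 in low-flow vessels, against 17227 ± 372 CPM in native arteries (SD). It fell in the same 3 groups, by less, with changes of -1.51, -1.25 and -1.34, beside -0.82 in high-flow (edgeR adjusted p = 0.126). In low-flow vessels the COX2 and COX3 calls were lost whichever library was left out (edgeR adjusted p up to 0.180 and 0.181). In stented static vessels both were lost without native replicate 2 or stented static replicate 1, and COX3 also without native replicate 1 (up to 0.0761 and 0.102). In stented high-flow vessels COX2 was lost without native replicate 2 (0.0520) and COX3 without either native library (up to 0.0761).

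COX1 (ENSSSCG00000018075, chromosome MT, 6511 to 8055), which carries the oxygen-binding haem and copper site, drew the most counts of any member and was called in no comparison. It had 9339 and 16129.5 CPM in the stented static pair, 23002, 22266 and 14198 CPM in the stented high-flow libraries, 19973 and 37411 CPM in the high-flow pair and 21288 and 14189.8 CPM in the low-flow pair, against 30306 and 23949 CPM in the native pair. Groups overlapped, and high-flow replicate 2 was the highest of all 11 libraries. The log2 fold change was -1.09 ± 0.45 in stented static, -0.45 ± 0.41 in stented high-flow, 0.08 ± 0.45 in high-flow and -0.61 ± 0.45 in low-flow vessels (edgeR adjusted p = 0.137, 0.453, 0.928 and 0.407). In high-flow vessels the sign turned to -0.39 without high-flow replicate 2 and to -0.03 without native replicate 2. A p above the threshold does not show that COX1 was the same in culture.

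**Figure D2:**
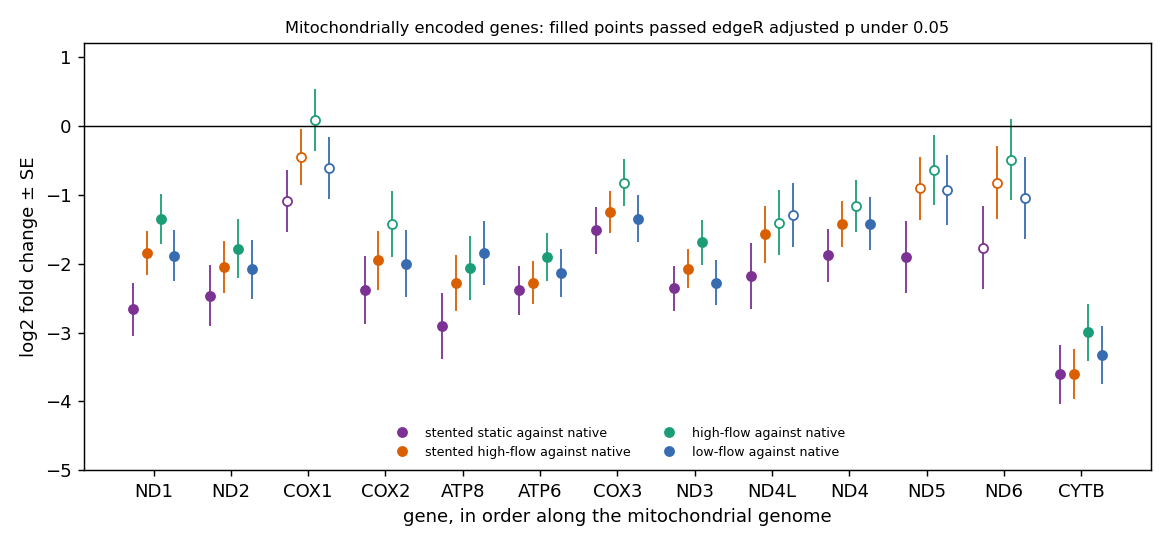
Log2 fold change against native (y axis, ± standard error) of the 13 mitochondrially encoded genes, in their order along the mitochondrial genome (x axis), for the 4 cultured groups; filled points passed an edgeR adjusted p of 0.05. CYTB lies lowest in every group (-3.61 to -2.997), and COX1 lies highest (-1.09 to 0.08).

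The mixture of mitochondrial messengers was not the same in culture as in native vessels. Of all counts on the 13 genes, COX1 held 33.9% and 40.1% in the stented static pair, 41.2%, 38.7% and 41.2% in the stented high-flow libraries, 40.6% and 44.4% in the high-flow pair and 39.5% and 35.8% in the low-flow pair, against 25.9% and 19.3% in the native pair. CYTB held 3.49% and 1.70% in the stented static pair, 1.23%, 2.10% and 1.66% in the stented high-flow libraries, 2.43% and 1.56% in the high-flow pair and 2.13% and 2.17% in the low-flow pair, against 9.05% and 7.62% in the native pair. On both measures the cultured and native libraries were apart. Both genes were picked as extremes of the fold changes against native, so this gap is a description. The ratio of COX1 to CYTB counts, chosen as the extremes of the fold changes and so given as a description, was 9.70 and 23.5 in the stented static pair, 33.5, 18.4 and 24.8 in the stented high-flow libraries, 16.7 and 28.4 in the high-flow pair and 18.6 and 16.5 in the low-flow pair, against 2.86 and 2.53 in the native pair. Its group means were 16.6 ± 9.80, 25.5 ± 7.55, 22.6 ± 8.30 and 17.5 ± 1.42 in the cultured groups, against 2.70 ± 0.235 in native vessels (SD).

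Per length, the order of the messengers also differed. In native arteries COX3 and ATP6 stood highest, at 21973 ± 474 and 21775 ± 2621 CPM per kb, ahead of COX1 (17558 ± 2909.6) and COX2 (16362 ± 1418), and ND4L was lowest at 3057 ± 989.9 (SD, n = 2). COX3 and ATP6 did not differ beyond their spread, nor did COX1 and COX2. In high-flow vessels COX1 led at 18571 ± 7981 CPM per kb, with COX3 at 12430.1 ± 3308, and the same order was seen in stented high-flow (12829.7 ± 3162 and 9245 ± 1910.2), low-flow (11482 ± 3249 and 8654 ± 809) and stented static vessels (8242 ± 3108 and 7697 ± 733). The gap between these means was within the SD of COX1 in high-flow, low-flow and stented static vessels and beyond it in stented high-flow. CYTB stood at 723 ± 173 CPM per kb in stented static, 722 ± 297.6 in stented high-flow, 1102 ± 74.4 in high-flow and 879.6 ± 179.6 in low-flow vessels, against 8796 ± 695 CPM per kb in native ones. That was the lowest mean of the 13 in the 3 groups with flow, while ND4L was lower in stented static (674 ± 33.5). These ranks lay within the spread. ND4L stood next at 1156 ± 440 in high-flow and 1029 ± 478 in stented high-flow, and ND3 at 946 ± 145 in low-flow vessels. In native arteries CYTB came after COX3, ATP6, COX1 and COX2, level with ND6 (8687 ± 2746) and ATP8 (8485 ± 3015) within their spread.

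Nuclear members changed in few cases. Against native, 0 rose and 3 fell in stented static vessels, 2 rose and 3 fell in stented high-flow, 1 rose and 1 fell in high-flow and 0 rose and 4 fell in low-flow, of 60 in each. Each of these counts is a smaller share of the 60 than that of all genes given above. The median log2 fold change of the 60 genes was -0.20, 0.04, 0.18 and -0.35 in that order, and single libraries moved it. In stented static vessels it was -0.38 without stented static replicate 1, -0.08 without stented static replicate 2 and -0.12 without native replicate 1. In high-flow vessels it was 0.07 without high-flow replicate 2. In stented high-flow vessels it was -0.18 without stented high-flow replicate 3, -0.02 without native replicate 2, 0.01 without stented high-flow replicate 2, 0.12 without native replicate 1 and 0.16 without stented high-flow replicate 1. At an unadjusted p under 0.05 the counts were 13, 7, 4 and 10, and DESeq2 called 6, 5, 3 and 7. Over all genes 4518, 5704, 4656 and 4410 of 15348 had such an unadjusted p. DESeq2, run without edgeR's low-count filter, called 3052, 4529, 3246 and 2889 of all genes. All cultured libraries lay below both native ones for 6 of 60 nuclear genes, against 16.9% of all genes, and above for 1, against 14.1% of all genes. With single libraries left out, 0 to 2 nuclear genes were called in stented static, 0 to 5 in stented high-flow, 1 to 2 in high-flow and 0 to 1 in low-flow vessels. Counts of 0 came without native replicate 2 or stented static replicate 1 in stented static, without native replicate 1 in stented high-flow, and without native replicate 1 or either low-flow library in low-flow vessels.

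**Figure D3:**
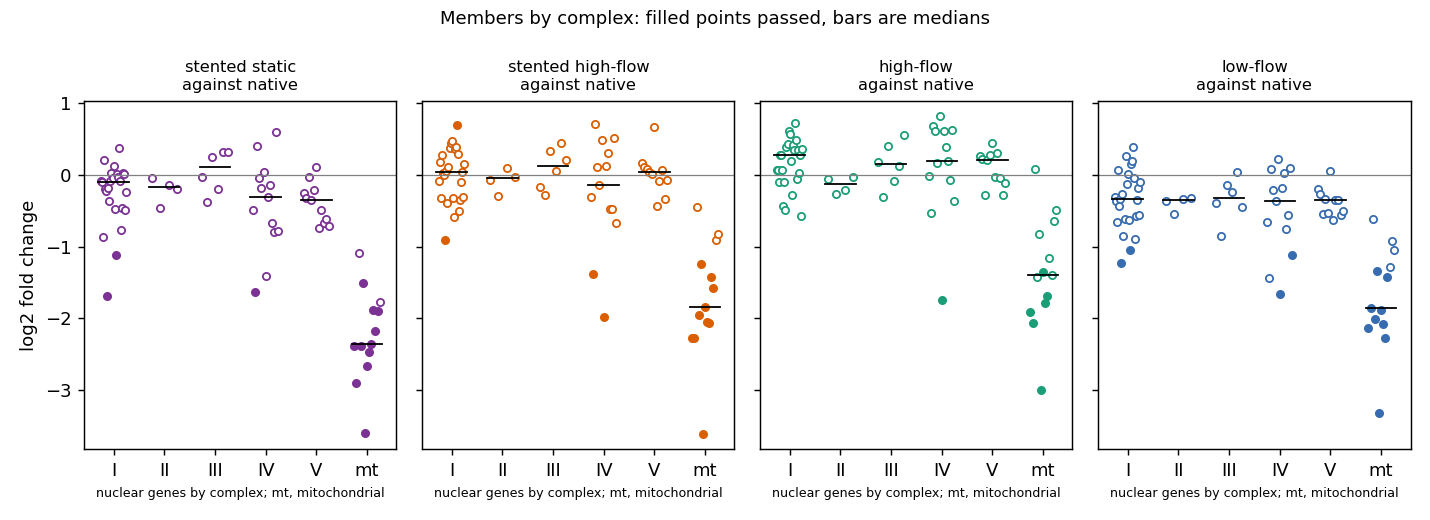
Log2 fold change against native (y axis) of each nuclear member by complex (I to V) and of the 13 mitochondrial genes (mt), a panel per cultured group; filled points passed an edgeR adjusted p of 0.05 and bars are medians. COX6B2, which had no counts in native arteries, is not drawn. Nuclear points lie around 0, and the mt bars lie at -2.36, -1.85, -1.40 and -1.85.

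Complex I had 25 nuclear members, with a median of -0.09 in stented static, 0.04 in stented high-flow, 0.27 in high-flow and -0.34 in low-flow vessels. NDUFB1 (ENSSSCG00000002449, chromosome 7, 113652772 to 113659937), an accessory subunit of the membrane arm, had 8.69 and 11.3 CPM in the stented static pair, 15.9, 18.1 and 17.3 CPM in the stented high-flow libraries, 17.5 and 30.2 CPM in the high-flow pair and 14.0 and 13.4 CPM in the low-flow pair, against 32.3 and 32.1 CPM in the native pair. High-flow replicate 2 was close to the native pair and all other cultured libraries were well below it. NDUFB1 fell in stented static (-1.69 ± 0.32), stented high-flow (-0.91 ± 0.28) and low-flow vessels (-1.23 ± 0.31), and stood at -0.43 ± 0.31 in high-flow (edgeR adjusted p = 0.00754, 0.0350, 0.0276 and 0.380). The call in stented static vessels was lost without native replicate 2 (0.0557) and when stented static replicate 1 was left out (0.0635). In the other 2 groups it was lost whichever library of the comparison was left out (adjusted p up to 0.161 in stented high-flow and 0.172 in low-flow).

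NDUFB9 (ENSSSCG00000005976, chromosome 4, 15105305 to 15113281), another accessory subunit of the membrane arm, had 49.8 and 41.7 CPM in the stented static pair, 63.9, 55.9 and 77.5 CPM in the stented high-flow libraries, 66.9 and 95.7 CPM in the high-flow pair and 50.2 and 46.0 CPM in the low-flow pair, against 101 and 97.4 CPM in the native pair. It fell in stented static (-1.12 ± 0.27) and low-flow vessels (-1.04 ± 0.27) and did not pass in stented high-flow (-0.59 ± 0.24) or high-flow (-0.29 ± 0.27), with edgeR adjusted p = 0.0243, 0.0307, 0.102 and 0.520. Both NDUFB9 calls were lost whichever library of their comparison was left out (adjusted p up to 0.134 and 0.196). The accessory subunit NDUFS4 also had all cultured libraries below the native ones, at 24.9 and 30.2 CPM in the stented static pair, 29.9, 41.1 and 27.9 CPM in the stented high-flow libraries, 44.5 and 45.2 CPM in the high-flow pair and 31.0 and 19.3 CPM in the low-flow pair, against 48.0 and 45.9 CPM in the native pair, and passed in no comparison against native.

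In complexes II and III no nuclear member was called against native. Complex II, which has no mitochondrially encoded subunit, had medians of -0.17, -0.05, -0.13 and -0.35. The member with the most counts, SDHA (ENSSSCG00000020686, chromosome 16, 79838442 to 79862956), the flavoprotein that oxidises succinate, had 135 and 86.1 CPM in the stented static pair, 94.2, 109 and 122 CPM in the stented high-flow libraries, 103 and 115 CPM in the high-flow pair and 80.9 and 95.2 CPM in the low-flow pair, against 123 and 104 CPM in the native pair. Groups overlapped except in low-flow vessels, with log2 fold changes of -0.04, -0.07, -0.05 and -0.37. The iron-sulfur subunit SDHB lay below both native libraries (65.6 and 68.9 CPM) in all cultured libraries, the highest of which was stented high-flow replicate 3 at 62.0 CPM. Complex III had nuclear medians of 0.11, 0.13, 0.15 and -0.32, beside falls of -2.997 to -3.61 for its mitochondrial subunit CYTB. Its core protein UQCRC1 averaged 90.5 ± 23.3, 96.1 ± 36.5, 101 ± 3.71 and 68.9 ± 0.665 CPM in the cultured groups, against 76.3 ± 11.7 CPM in native arteries (SD), and passed in none.

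Complex IV held 4 of the 7 nuclear members called against native: COX4I2, COX6B2, COX7A1 and NDUFA4. Its 14 nuclear members had a median of -0.25 in stented static, -0.02 in stented high-flow, 0.29 in high-flow and -0.29 in low-flow vessels. COX7A1 (ENSSSCG00000037792, chromosome 6, 45519225 to 45520721), the heart and muscle form of subunit VIIa, had 14.7 and 12.7 CPM in the stented static pair, 8.25, 9.82 and 9.51 CPM in the stented high-flow libraries, 7.68 and 14.1 CPM in the high-flow pair and 7.92 and 14.96 CPM in the low-flow pair, against 50.3 and 22.4 CPM in the native pair. All cultured libraries were at or below 14.96 CPM, and the native pair was far apart. COX7A1 fell, at -1.98 ± 0.41 in stented high-flow, -1.74 ± 0.46 in high-flow and -1.67 ± 0.46 in low-flow vessels, and stood at -1.41 ± 0.46 in stented static (edgeR adjusted p = 0.00591, 0.0282, 0.0376 and 0.0655). Without native replicate 1 the changes were -1.29, -1.04 and -0.97 and none of the 3 calls held (adjusted p = 0.102, 0.256 and 0.308). The high-flow call was also lost without high-flow replicate 1 (0.188), and the low-flow call without low-flow replicate 1 (0.265) or 2 (0.0820) and under the replicate block (0.0579). Native replicate 1 had the higher cardiac marker sum (2815 CPM, against 994 CPM in native replicate 2), and the part of cardiac tissue in the COX7A1 values was not tested.

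COX7A2, the form of the same subunit found in most tissues, had 33.4 and 32.6 CPM in the stented static pair, 32.4, 51.4 and 49.3 CPM in the stented high-flow libraries, 53.7 and 71.4 CPM in the high-flow pair and 35.8 and 35.8 CPM in the low-flow pair, against 41.3 and 40.4 CPM in the native pair. No group passed, and high-flow vessels stood highest (0.61 ± 0.28, edgeR adjusted p = 0.172). The ratio of COX7A1 to COX7A2 counts was 0.414 ± 0.0369 in stented static, 0.213 ± 0.0362 in stented high-flow, 0.170 ± 0.0381 in high-flow and 0.320 ± 0.139 in low-flow vessels, against 0.886 ± 0.471 in native ones (SD). COX7A2L, a relative that links complexes III and IV into supercomplexes, averaged 73.5 ± 1.62, 99.7 ± 11.53, 106 ± 6.08 and 82.5 ± 5.30 CPM, against 80.8 ± 12.9 CPM in native arteries, and passed in none.

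Subunit IV, which regulates the enzyme, also has alternative forms. COX4I1, the common form and the nuclear member of complex IV with the most counts, had 255.8 and 143 CPM in the stented static pair, 187, 222 and 267.1 CPM in the stented high-flow libraries, 209 and 344 CPM in the high-flow pair and 174 and 179 CPM in the low-flow pair, against 293 and 267.4 CPM in the native pair, and passed in no comparison. COX4I2, the form known from lung and from oxygen-regulated expression, had 18.1 and 18.9 CPM in the stented static pair, 32.4, 15.1 and 18.5 CPM in the stented high-flow libraries, 22.6 and 56.6 CPM in the high-flow pair and 21.3 and 20.8 CPM in the low-flow pair, against 52.3 and 62.0 CPM in the native pair. High-flow replicate 2 lay within the native range and the rest were below it. COX4I2 fell in stented static (-1.63 ± 0.45) and stented high-flow vessels (-1.38 ± 0.39) and stood at -1.44 ± 0.45 in low-flow and -0.53 ± 0.44 in high-flow (edgeR adjusted p = 0.0377, 0.0269, 0.0574 and 0.458). In stented static vessels the call was lost whichever library of the comparison was left out (adjusted p up to 0.185). In stented high-flow vessels it did not hold without native replicate 1 (0.0829) or 2 (0.146), nor without replicate 2 (0.0930) or 3 (0.0664) of the stented group.

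COX6B2, known as the testis form of subunit VIb, rose in stented high-flow and high-flow vessels. It had 10 and 0 counts in the stented static pair, 34, 18 and 26 counts in the stented high-flow libraries, 136 and 78 counts in the high-flow pair and 4 and 3 counts in the low-flow pair, against 0 and 0 counts in the native pair. Against a floor of 3 counts over the native group, the pooled CPM was at least 59.7-fold higher in high-flow and at least 16.0-fold higher in stented high-flow vessels (edgeR adjusted p = 0.00481 and 0.00840). The level was still low, at 6.92 and 4.004 CPM in high-flow and 2.44, 1.01 and 1.22 CPM in stented high-flow vessels. In stented static and low-flow vessels the bounds were 2.61-fold and 1.47-fold and the gene did not pass. The stented high-flow call was lost without either native library (adjusted p = 0.0559 without replicate 1 and 0.0561 without replicate 2), and the high-flow call held with every library left out. Such floors cover counting error only. COX6B2 met the rule of at least 10 counts in 2 or more libraries through the groups where it was high. Native and low-flow libraries alone would not have admitted it. Its place among the members is therefore no support for the rise, and it is counted in the nuclear rises given above.

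NDUFA4 (ENSSSCG00000024313, chromosome 9, 80637005 to 80644067), first assigned to complex I and now to complex IV, had 46.9 and 53.3 CPM in the stented static pair, 43.6, 63.1 and 54.2 CPM in the stented high-flow libraries, 73.3 and 59.6 CPM in the high-flow pair and 43.7 and 35.6 CPM in the low-flow pair, against 99.7 and 72.1 CPM in the native pair. It fell in low-flow vessels (-1.12 ± 0.29, edgeR adjusted p = 0.0286), a call lost whichever library of the comparison was left out (adjusted p up to 0.207), and stood at -0.78, -0.68 and -0.37 in stented static, stented high-flow and high-flow. Its excluded paralogue NDUFA4L2, known in other mammals as induced by low oxygen, went the other way, at 896 and 426 CPM in the stented static pair, 159, 287 and 483 CPM in the stented high-flow libraries, 149 and 113 CPM in the high-flow pair and 337 and 334 CPM in the low-flow pair, against 12.1 and 6.50 CPM in the native pair. NDUFA4L2 rose in all 4 groups, with log2 fold changes of 6.15, 5.06, 3.82 and 5.17. No cultured library overlapped the native pair for NDUFA4L2. Among the remaining forms, the muscle form COX6A2 averaged 22.7 ± 0.173, 31.1 ± 7.22, 39.0 ± 12.96 and 25.8 ± 1.07 CPM in the cultured groups, against 22.2 ± 8.12 CPM in native arteries. The common form COX6A1 averaged 99.4 ± 26.1, 103 ± 22.6, 126 ± 23.7 and 87.6 ± 20.8 CPM, against 113 ± 8.12. COX8A, the common form of subunit VIII, had 85.004 and 40.1 CPM in the stented static pair, 30.8, 52.1 and 94.0 CPM in the stented high-flow libraries, 52.7 and 75.0 CPM in the high-flow pair and 37.4 and 51.1 CPM in the low-flow pair, against 44.3 and 38.4 CPM in the native pair. None of these 3 genes passed in any group against native, and the stented libraries were far apart for COX8A.

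None of the nuclear ATP synthase members read here was called, beside the falls of ATP6 and ATP8. The 11 nuclear members had a median of -0.36 in stented static, 0.04 in stented high-flow, 0.20 in high-flow and -0.35 in low-flow vessels. The catalytic-head subunit ATP5F1A, which had the most counts of them, had 204 and 187 CPM in the stented static pair, 181, 299 and 303 CPM in the stented high-flow libraries, 359 and 203 CPM in the high-flow pair and 225 and 182 CPM in the low-flow pair, against 257 and 210.2 CPM in the native pair. It overlapped native in every cultured group except stented static. ATP5IF1, the inhibitor that stops the enzyme from running backwards, averaged 34.8 ± 10.5, 45.9 ± 14.9, 51.3 ± 15.2 and 35.4 ± 7.53 CPM, against 44.6 ± 4.95 CPM in native arteries (SD). The stalk subunit ATP5PF lay below both native libraries in all cultured libraries, at 65.4 and 57.5 CPM in the stented static pair, 60.8, 78.0 and 84.7 CPM in the stented high-flow libraries, 76.6 and 79.4 CPM in the high-flow pair and 60.5 and 68.0 CPM in the low-flow pair, against 94.3 and 94.5 CPM in the native pair, and was not called.

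**Figure D4:**
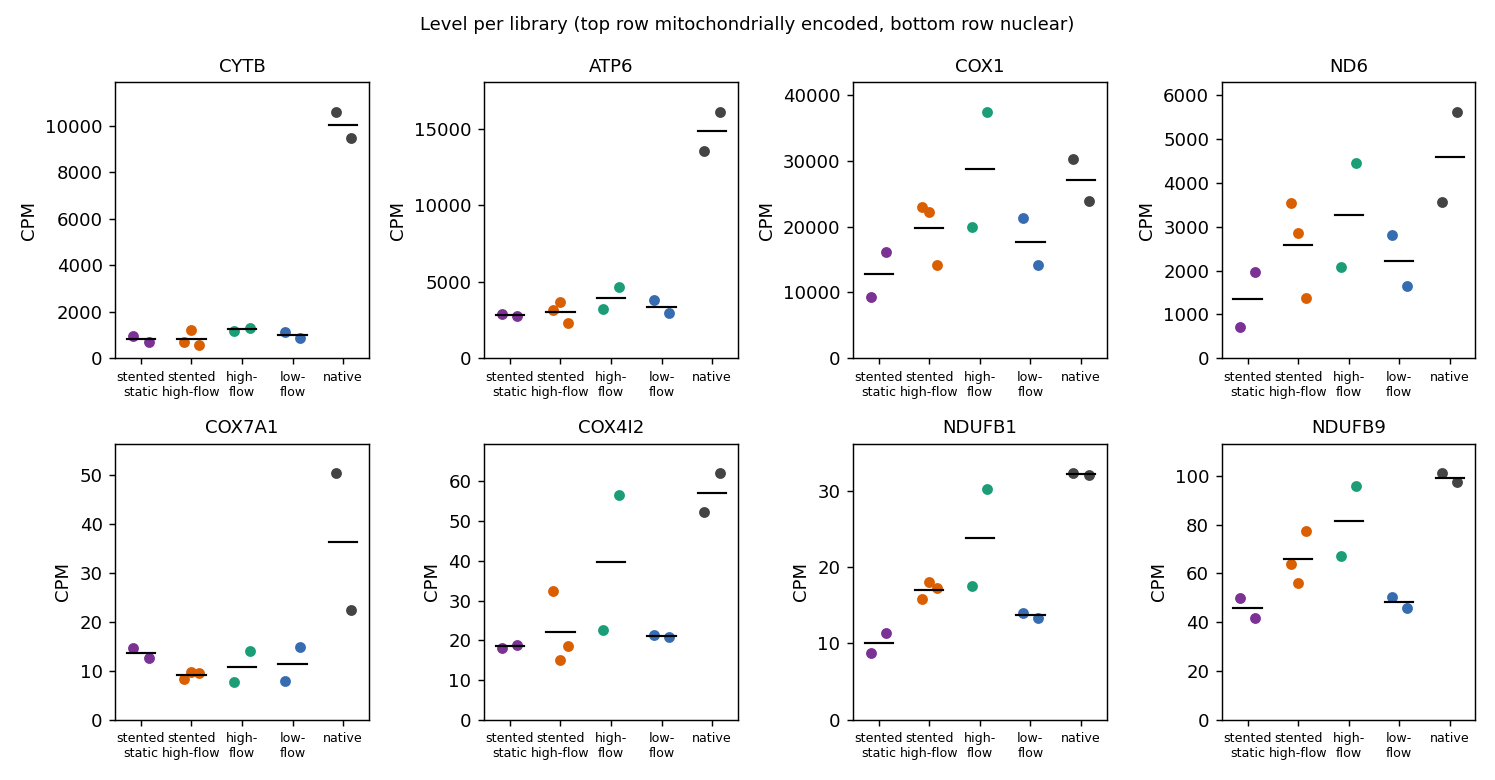
Level per library (CPM, y axes from 0) of 4 mitochondrially encoded (top) and 4 nuclear (bottom) members in the 5 groups (x axes); points are libraries and bars are group means. CYTB and ATP6 show a gap between cultured and native libraries, COX1 and ND6 overlap, and all cultured libraries lie below the native pair for NDUFB9 (at most 95.7 CPM, against 101 and 97.4 CPM).

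The wider mitochondrial programme was read from 6 lists. Their counts are set against the all-gene shares given above, which in stented high-flow vessels were 10.4% higher and 13.9% lower. Of 14 tested complex I assembly factors 1 rose in stented high-flow vessels, DMAC2 (0.83 ± 0.26), and 0 changed in the other 3 groups. Of 22 assembly factors of the other complexes 1 rose in each group and 0 fell. It was BCS1L, the chaperone that inserts the Rieske protein into complex III, in all 4: it had 8.77 and 7.18 CPM in the stented static pair, 7.25, 5.55 and 6.89 CPM in the stented high-flow libraries, 6.56 and 7.19 CPM in the high-flow pair and 6.04 and 6.12 CPM in the low-flow pair, against 2.87 and 2.07 CPM in the native pair, with changes of 1.69, 1.41, 1.48 and 1.30 (edgeR adjusted p = 0.0154, 0.0142, 0.0227 and 0.0422). Left out singly, either native library ended each BCS1L call (adjusted p up to 0.232). Of 26 genes for upkeep of mitochondrial DNA and transcripts, 2 rose in stented high-flow vessels and 0 in the others: PRORP (1.41 ± 0.41), the nuclease that trims mitochondrial tRNA precursors, and FASTKD3 (0.87 ± 0.27), an RNA-binding factor of the organelle. No gene of that list fell in any group. The share called higher in stented high-flow vessels was 7.14% of complex I assembly factors, 4.55% of the other assembly factors and 7.69% of the upkeep genes, all below that of all genes. The mitochondrial RNA polymerase POLRMT had 60.5 and 43.7 CPM in the stented static pair, 23.3, 28.8 and 55.6 CPM in the stented high-flow libraries, 33.4 and 32.0 CPM in the high-flow pair and 27.6 and 35.9 CPM in the low-flow pair, against 31.8 and 21.1 CPM in the native pair, and the DNA-packaging factor TFAM had 21.1 and 27.98 CPM in the stented static pair, 43.6, 33.9 and 21.4 CPM in the stented high-flow libraries, 32.0 and 22.4 CPM in the high-flow pair and 30.7 and 29.7 CPM in the low-flow pair, against 24.5 and 35.4 CPM in the native pair. LRPPRC, which stabilises mitochondrial messengers, had 43.7 and 75.0 CPM in the stented static pair, 66.0, 83.3 and 63.2 CPM in the stented high-flow libraries, 63.0 and 37.6 CPM in the high-flow pair and 88.5 and 59.0 CPM in the low-flow pair, against 36.3 and 44.0 CPM in the native pair. These 3 genes were picked for their role, and none of them was called.

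Among 14 regulators of mitochondrial biogenesis, 0 rose and 1 fell in stented static, 1 rose and 2 fell in stented high-flow, 0 rose and 1 fell in high-flow and 0 changed in low-flow vessels. In stented high-flow vessels these were 7.14% higher and 14.3% lower, near or below the shares of all genes, and in the other groups they did not exceed them. PPARGC1A, the coactivator PGC-1 alpha, had 1.82 and 0.973 CPM in the stented static pair, 0.0718, 0.112 and 0.234 CPM in the stented high-flow libraries, 0.509 and 0.257 CPM in the high-flow pair and 0.771 and 0.350 CPM in the low-flow pair, against 4.49 and 0.978 CPM in the native pair, and fell in stented high-flow vessels (edgeR adjusted p = 0.00547). Leaving out native replicate 1 ended that call (0.0970). Native replicate 2 lay within the stented static range. The nuclear receptor ESRRG fell in stented static, stented high-flow and high-flow vessels at levels under 1 CPM on average (0.781 and 0.978 CPM in native). The related coactivator PPRC1 rose in stented high-flow vessels (1.17 ± 0.33), at 57.5, 76.2 and 124 CPM, against 40.1 and 36.3 CPM in native arteries. Of 18 tricarboxylic acid cycle genes 1 rose in stented high-flow vessels, the dehydrogenase subunit IDH3A (1.45 ± 0.37), which is 5.56% of that list, and 0 changed elsewhere.

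Of 20 electron carrier and nucleotide exchange genes, 0 rose and 1 fell in stented static, 2 rose and 2 fell in stented high-flow, 2 rose and 1 fell in high-flow and 0 rose and 3 fell in low-flow vessels. In stented high-flow vessels neither count exceeded the share of all genes. The 2 that rose in high-flow and the 3 that fell in low-flow vessels were larger shares than the 5.94% and 7.38% of all genes, from few genes. SLC25A4, the heart and muscle form, had 28.02 and 32.0 CPM in the stented static pair, 34.9, 29.9 and 30.4 CPM in the stented high-flow libraries, 23.2 and 32.0 CPM in the high-flow pair and 29.2 and 31.5 CPM in the low-flow pair, against 161 and 86.9 CPM in the native pair, and fell in all 4 groups (-2.05, -1.97, -2.17 and -2.03; edgeR adjusted p = 0.00335, 0.000934, 0.00235 and 0.00352). Native replicate 1, with the higher cardiac marker sum (2815 CPM, against 994 CPM in native replicate 2), also had the higher SLC25A4 level. Without it the changes were -1.53, -1.46, -1.66 and -1.53 and all 4 calls held, and the low-flow call was lost without low-flow replicate 1 (adjusted p = 0.0558). SLC25A5, the form of dividing cells, had 64.7 and 48.7 CPM in the stented static pair, 47.1, 59.9 and 97.2 CPM in the stented high-flow libraries, 70.3 and 54.1 CPM in the high-flow pair and 55.1 and 48.8 CPM in the low-flow pair, against 26.3 and 27.5 CPM in the native pair, and rose in stented high-flow (1.34 ± 0.33) and high-flow vessels (1.21 ± 0.35). It stood at 1.08 in stented static and 0.95 in low-flow vessels, which did not pass. SLC25A6, another ADP/ATP carrier, named after its values were seen, had 1267 and 911 CPM in the stented static pair, 737, 949 and 1662 CPM in the stented high-flow libraries, 1031 and 792 CPM in the high-flow pair and 833 and 876 CPM in the low-flow pair, against 529 and 538 CPM in the native pair. All cultured libraries were above the native pair for SLC25A6, with log2 fold changes of 1.03, 1.07, 0.77 and 0.68, and no group passed (edgeR adjusted p = 0.0997, 0.0508, 0.200 and 0.270). The outer membrane channel VDAC1 rose in the same groups (1.18 ± 0.27 and 1.11 ± 0.29). COQ8A, needed to make coenzyme Q, fell in stented high-flow (-1.71 ± 0.54) and low-flow vessels (-2.25 ± 0.63). Of the calls named from these 6 lists, those of SLC25A4 alone held without native replicate 1, and those of SLC25A4 and PPARGC1A alone without native replicate 2.

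The remaining comparisons set cultured groups against each other. Flow with a stent was read from stented high-flow against stented static vessels, where edgeR called 0 of 73 members, beside 1.18% of all genes higher and 1.67% lower. Of the 60 nuclear genes 52 had a positive log2 fold change (median 0.24, all genes 0.01), and of the mitochondrial genes 12 of 13 did (median 0.46). At an unadjusted p under 0.05 there were 4 nuclear and 1 mitochondrial gene, and DESeq2 called 2 nuclear and 0 mitochondrial genes. Over all genes 2937 of 15348 had such an unadjusted p, and DESeq2 called 1350. All 11 nuclear members of ATP synthase leaned towards stented high-flow, led by ATP5PB, a subunit of the peripheral stalk, at 77.6, 95.9 and 97.1 CPM in stented high-flow, against 57.4 and 51.0 CPM in stented static vessels (0.73 ± 0.23, edgeR adjusted p = 0.107). ND1 stood at 1286, 1719.9 and 1074 CPM, against 544 and 999 CPM (0.82 ± 0.33, adjusted p = 0.212). The nuclear median was 0.09 without stented high-flow replicate 3, 0.14 without stented static replicate 2, 0.40 without stented high-flow replicate 1 and 0.42 without stented static replicate 1. The mitochondrial median was 0.27 without stented static replicate 1, 0.31 without stented high-flow replicate 2, 0.69 without stented high-flow replicate 3 and 0.71 without stented static replicate 2.

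The stent under high flow was read from stented high-flow against high-flow vessels. No member was called by edgeR or DESeq2, and edgeR called 0% of all genes in either direction. At an unadjusted p under 0.05 there were 3 nuclear and 0 mitochondrial genes. Over all genes 467 of 15348 had such an unadjusted p, and DESeq2 called 6. The medians were -0.14 for nuclear and -0.37 for mitochondrial members, beside 0.03 for all genes. All 13 mitochondrial genes had a negative log2 fold change, from -0.61 to -0.17. The mitochondrial median was -0.04 without high-flow replicate 2, -0.21 without stented high-flow replicate 3 and -0.67 without high-flow replicate 1. The nuclear median was 0.02 without stented high-flow replicate 1, -0.07 without high-flow replicate 2 and -0.33 without stented high-flow replicate 3. COX7B, a small subunit of complex IV, was at 42.2, 55.0 and 45.1 CPM in stented high-flow, against 63.2 and 87.8 CPM in high-flow vessels (-0.67 ± 0.24, edgeR adjusted p = 1).

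The strength of flow without a stent was read from low-flow against high-flow vessels. Here the nuclear members leaned the most alike of the 7 comparisons: 58 of 60 had a negative log2 fold change (median -0.50, all genes -0.00), and none was called by edgeR, beside 0.0261% of all genes higher and 0.0782% lower. At an unadjusted p under 0.05 there were 14 nuclear and 0 mitochondrial genes, and DESeq2 called 1 nuclear and 0 mitochondrial genes. Over all genes 1236 of 15348 had such an unadjusted p, and DESeq2 called 105. The summed nuclear level was 2793 and 2754 CPM in low-flow, against 3748 and 4033 CPM in high-flow vessels. COX7B had 37.6 and 40.7 CPM in low-flow, against 63.2 and 87.8 CPM in high-flow vessels (-0.95 ± 0.26, edgeR adjusted p = 0.481). NDUFS5, an accessory subunit of complex I, had 37.0 and 34.5 CPM, against 53.3 and 81.6 CPM (-0.92 ± 0.29, adjusted p = 0.510). COX6B2 had 4 and 3 counts in low-flow, against 136 and 78 in high-flow vessels (adjusted p = 0.205). COX7B, NDUFS5, ATP5PB and ND1 were named in these last comparisons after their values were seen. The nuclear median stayed between -0.58 and -0.39 with single libraries left out. The mitochondrial median was -0.32, at -0.71 without high-flow replicate 1, 0.03 without high-flow replicate 2, -0.54 without low-flow replicate 1 and -0.21 without low-flow replicate 2.

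Single libraries stood out among the nuclear members. Stented high-flow replicate 3 held the highest level of 22 of the 60 nuclear genes and the lowest of 0, and high-flow replicate 2 the highest of 15. Stented high-flow replicate 1 held the lowest level of 17 and the highest of 0, and 51 of 60 nuclear genes were higher in replicate 3 than in replicate 1 of that group. The mitochondrial genes ran differently: stented high-flow replicate 3 had the lowest level of 5 of 13, stented static replicate 1 of 7, and native replicate 2 the highest of 9. From the lowest to the highest library, 59 nuclear genes without COX6B2 spanned a median of 2.20-fold, from 1.57-fold for NDUFS1 to 6.55-fold for COX7A1. The mitochondrial genes spanned a median of 7.62-fold, from 3.11-fold for COX3 to 18.5-fold for CYTB.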

How the data were processed

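Total RNA of porcine coronary arteries was sequenced from 11 libraries in 5 groups taken from the labels. The authors purified RNA on columns with DNase treatment and prepared paired-end libraries, per the labels' protocols. Per the submitters' processing notes they used DESeq2, FastQC, Trimmomatic and the Sscrofa11.1 genome; aligner, annotation release, strand setting and any poly(A) selection were not given in the sources used here. Values are raw gene counts that the authors deposited in 2 tables, joined here by gene. The authors' deposited tables of changed genes hold log2 fold changes and are quoted only where named. No column of per-sample values was left unused (0). Of 25880 identifiers 14857 have a symbol. Positions come from RefSeq's Sscrofa11.1 annotation by symbol.

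The fit used edgeR 4.0.16 and limma 3.58.1 in R 4.3.3. After filterByExpr, 15348 genes remained, libraries were scaled by TMM, and all 5 groups shared 1 quasi-likelihood fit. Benjamini-Hochberg adjusted p-values were read at 0.05. CPM use TMM-scaled library sizes, and log2 CPM a prior count of 2. A floor of 3 counts equals 0.105 to 0.215 CPM, depending on the library. The script was tested on simulated data. Members and lists were chosen with earlier results of these data known. Named members are all 13 mitochondrial genes, up to 2 called nuclear genes per comparison, complex and direction with the largest change, the member of each complex with the highest mean CPM and a fixed set of tissue forms; in the other lists up to 2 called genes per direction. Genes named after their values were seen, or for their role, are marked, as are the nuclear genes whose cultured and native libraries did not overlap. Alternatives were DESeq2 1.42.0, RLE size factors, no low-count filter, only the groups compared, library sizes without the mitochondrial protein genes, a replicate block, and each library left out in turn. No pairing by replicate number was seen: over 20 same-numbered pairs the deviations from group means correlated at -0.329 to 0.183 (median -0.0751). In groups of 2 libraries the deviations mirror each other, so many of these values repeat each other. The libraries sharing label number 25 were not such a pair, and other pairings were not tested. Promoter motifs were not analysed here. The result of 1 nuclear member is not reported here; it stays in the counts, medians and sums.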

Additional observations from a re-analysis of the deposited data

How the results depend on the processing

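Of 50 calls of members against native, 16 kept direction and call under every alternative, 34 lost the call under at least 1 and 0 turned round, and 407 of 515 alternative values were still called. CYTB kept its call in all 4 comparisons, ND1, ND2, ND3, ATP6 and ATP8 in stented static and stented high-flow, ND3 also in low-flow, and COX6B2 in high-flow. DESeq2 called 6 nuclear members in stented static, 7 in low-flow, 2 in stented high-flow against stented static and 1 in low-flow against high-flow (edgeR 3, 4, 0 and 0), and 10 mitochondrial ones in high-flow (edgeR 6). The DESeq2 counts over all genes are given above, with the nuclear members and the comparisons between cultured groups. Without a low-count filter edgeR called 3 nuclear members in stented high-flow (5 with it) and 1 in low-flow against high-flow (0). With only the groups compared it called 11 in low-flow (4). With the replicate number as a block, although no pairing by that number was seen, it called 2 nuclear members in stented high-flow and 2 in low-flow. The nuclear median in stented high-flow was then -0.18 (0.04 without the block). With a mean of log2 CPM the log2 ratio of high-flow to native was -1.58 (-1.02 from summed CPM). With single libraries left out, nuclear calls ran 0 to 2 in stented static, 0 to 5 in stented high-flow, 1 to 2 in high-flow and 0 to 1 in low-flow, and mitochondrial calls 6 to 11, 6 to 10, 1 to 5 and 2 to 4. The nuclear median in stented high-flow then ran from -0.18 to 0.16 and the mitochondrial one in low-flow from -1.88 to -1.39. COX1 in high-flow turned from 0.08 to -0.03 without native replicate 2 and to -0.39 without high-flow replicate 2, and was 0.47 without high-flow replicate 1. The cause of these shifts was not tested, beyond the fewer libraries in each fit. RLE size factors and library sizes without mitochondrial genes moved no count past 1.5 times. At a floor of 3 counts (0.105 to 0.215 CPM), depth limits COX6B2 in native, stented static and low-flow libraries.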

Other observations

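The authors' deposited tables of genes changed against native list 6 members in stented static (CYTB, ND1, ATP6, ATP8, ND3 and ND2), 4 in stented high-flow (CYTB, ATP6, COX6B2 and ND3), 4 in high-flow (CYTB, COX6B2, ATP6 and ATP8) and 5 in low-flow vessels (CYTB, ND3, ATP6, ND1 and ND2). COX6B2 is the only nuclear subunit of the 73 members in those tables. DESeq2 as run here, at an adjusted p under 0.05, called 6, 5, 3 and 7 nuclear members in these groups. Absence from the authors' tables therefore does not show that a member was unchanged. The authors' deposited tables give CYTB a log2 fold change of -3.61 in stented static, -3.61 in stented high-flow, -2.99 in high-flow and -3.32 in low-flow.

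The same tables list the paralogue NDUFA4L2 in all 4 comparisons, at 6.15, 5.07, 3.83 and 5.19. Its level in stented static vessels, 896 and 426 CPM, lay above or within that of the flow cultures, at 159, 287 and 483 CPM in the stented high-flow libraries, 149 and 113 CPM in the high-flow pair and 337 and 334 CPM in the low-flow pair. Between culture groups it did not pass Benjamini-Hochberg adjustment in edgeR's quasi-likelihood test: stented high-flow over stented static was -1.09 ± 0.46 (adjusted p = 0.219), stented high-flow over high-flow 1.24 ± 0.48 (adjusted p = 1) and low-flow over high-flow 1.36 ± 0.51 (adjusted p = 0.582).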
